A study of Schizosaccharomyces pombe
Saccharomyces cerevisiae with 8 samples.

Results

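Budding yeast (Saccharomyces cerevisiae) senses inorganic phosphate through the PHO pathway, and 10 genes of that pathway are described here. They were chosen by name: PHO84, PHO5, PHO3, PHO11, PHO12, PHO81, SPL2, VTC1, VTC3 and VTC4. All 10 stood in the deposited total RNA table of 6518 features. The newly synthesized RNA table of 2822 features held 9 of them, and PHO12 was the exception, so its newly synthesized RNA was not analysed here.

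The strain (GZY380) is of mating type alpha, with deletion alleles of ade2, his3, leu2, lys2, met15, trp1 and ura3. It makes the rice auxin receptor OsTIR1 from the GPD1 promoter at his3. It also carries degron-tagged Mediator subunits (MED14-3HA-IAA7 and MED17-3V5-IAA7), so that auxin marks both proteins for destruction. Mediator is the coactivator that passes signals from promoter-bound activators to RNA polymerase II. Cultures in YPD, a rich medium, received 500 µM auxin or the carrier DMSO for 30 min, followed by 5 mM 4-thiouracil, which tags RNA made during labelling, for 6 min. Total RNA and the purified labelled RNA were sequenced from 2 DMSO and 2 auxin samples each, 8 libraries in 4 groups. The DMSO controls carry the same tags and receptor, so a strain without tags given auxin was not analysed here. The series is about how far transcription across the genome needs Mediator's architectural subunits, a question put to each gene here by setting auxin beside DMSO.

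When phosphate is plentiful, the cyclin-dependent kinase Pho85 with its cyclin Pho80 phosphorylates the activator Pho4 and keeps it out of the nucleus. When phosphate runs short, the inhibitor Pho81 blocks the kinase, and Pho4 enters the nucleus and acts with Pho2 on promoters such as those of PHO5 and PHO84. The products take up phosphate (Pho84), release it from organic compounds outside the cell (the acid phosphatases) and store it in the vacuole as polyphosphate (the VTC complex). PHO3 differs from the others, since it is not repressed by phosphate but by thiamine.

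Counts summed to between 10862028 and 17491251 per library in the total RNA table. In the newly synthesized RNA table, which is partial, they summed to between 4817883 and 15744423 over the listed features. The 10 genes took 0.355% and 0.359% of total RNA counts in DMSO and 0.285% and 0.290% in auxin. Pheromone genes of alpha cells were abundant (MF(ALPHA)1 at 4214 and 4393 normalized counts in total RNA of DMSO cells). The a-factor genes MFA1 and MFA2 had at most 3 counts in any total RNA library. STE2 had 18 to 67, BAR1 10 to 22 and STE6 85 to 377, so 2 of the 5 a-cell markers were at or near 0. RNA of the tagged genes does not show whether the proteins were degraded, and it fell in total RNA for MED14 (from 3249 and 3667 to 1294 and 1564) and for MED17 (from 2270 and 2812 to 617 and 742), whereas with TMM scaling MED14 was higher (0.49) and MED17 was not called (-0.14).

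Normalized counts are raw counts divided by the authors' size factor for each library. Changes are given as auxin over DMSO on the log2 scale, from edgeR's quasi-likelihood test, called at an adjusted p below 0.05, and ± marks the SD over 2 libraries. In total RNA 92.3% of the 5589 tested features were called lower and 0.769% higher, and the median log2 fold change was -1.85. With TMM scaling, which takes the bulk of features to be unchanged, that median lay 1.76 higher, at -0.09. Each gene is therefore also placed relative to the median feature. In bulk RNA from a culture, fewer cells and less RNA per cell cannot be told apart.

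The 10 genes did not move as a block in total RNA. PHO84, PHO81 and SPL2 fell further than the median feature, whereas the acid phosphatases and the VTC subunits lay above it. Features were also set in 10 level classes by mean normalized count per kb. The mean was not of DMSO libraries alone, since VTC1, at the 69.6th percentile by DMSO level, was in class 8. A class mean that takes in auxin libraries depends in part on the fold change, so places within classes are description only. Within their own class PHO84 and SPL2 lay below the lower quartile and PHO5, PHO11 and PHO12 above the upper one. PHO81, PHO3, VTC1, VTC3 and VTC4 lay between the quartiles of theirs. Of the 10, 9 were called lower, 0 were called higher and 1 (PHO12) was not called, a share close to the 92.3% of all features. Higher values were called for 0 of the 10 by DESeq2's test, and 0 of the 10 rose with an unadjusted edgeR p below 0.05. The median of the 10 was -1.005, against -1.85 over all tested features. Both auxin libraries lay below both DMSO libraries for all 10, as they did for 94.6% of tested features. With TMM scaling 2 of the 10 were called lower (PHO84 and SPL2) and 6 higher (PHO5, PHO3, PHO11, PHO12, VTC3 and VTC4), beside 32.3% and 29.6% of all features.

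**Figure D1:**
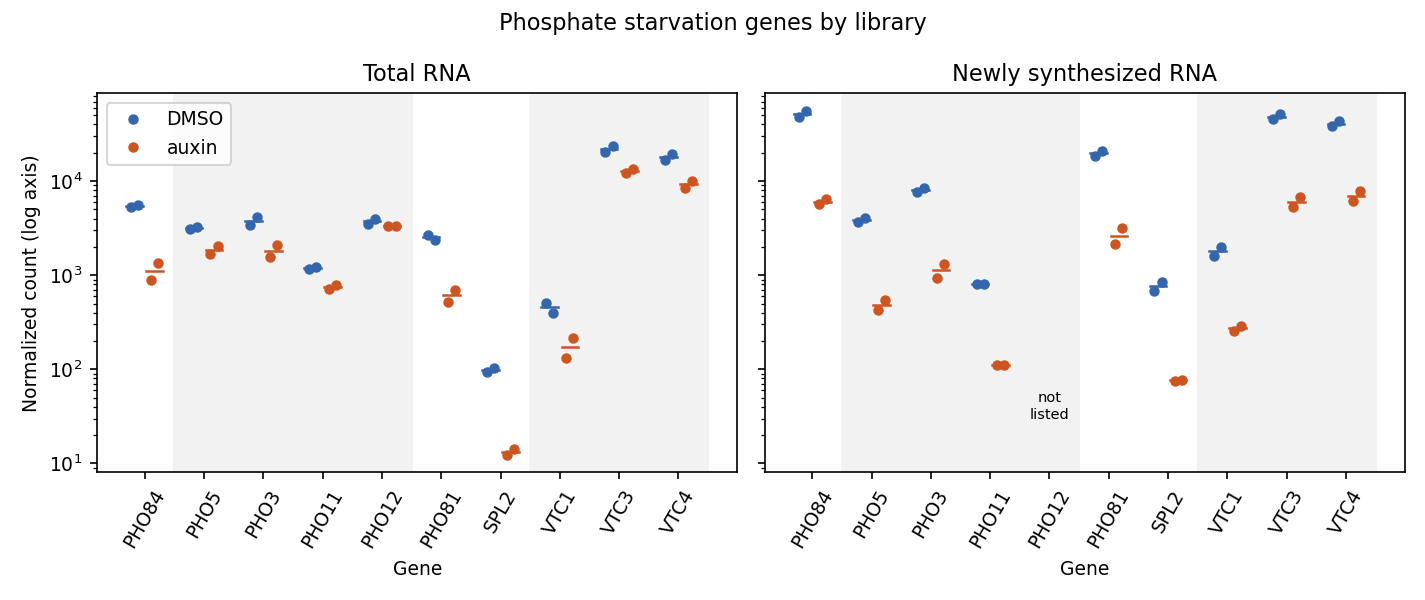
Normalized counts (log axis) of the 10 genes in each library of total RNA (left) and newly synthesized RNA (right), with DMSO in blue, auxin in orange and a bar at the mean of 2 libraries. In total RNA SPL2 dropped from 93.3 and 104 to 12.4 and 14.3, while PHO12 stayed between 3339 and 3953. In newly synthesized RNA each of the 9 listed genes was lower in both auxin libraries. Under TMM scaling 6 genes of the left panel rise instead.

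PHO84 (YML123C, chromosome XIII 24037 to 25800, build sacCer3) encodes the high-affinity phosphate transporter of the plasma membrane. Its total RNA stood at 5328 and 5519 normalized counts in DMSO and at 896 and 1344 in auxin. The auxin libraries were well below the DMSO libraries, and the second auxin library was the higher of its pair. PHO84 fell 4.84-fold (log2 fold change -2.27, SE 0.204, edgeR adjusted p = 7.09e-28), to 20.7% of its DMSO mean. It lay 0.42 below the median feature, at the 24.6th percentile of all fold changes, and it was also lower with TMM scaling (-0.53, edgeR adjusted p = 5.13e-03). Among the 559 features of its own level class, the ninth of 10 by mean normalized count per kb, the median was -1.29 and the lower quartile -1.73, so PHO84 lay below the class's quartiles.

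Newly synthesized PHO84 RNA was the most abundant of the listed members per length. It stood at 47405 and 55900 normalized counts in DMSO and at 5679 and 6435 in auxin. Groups were far apart, and the log2 fold change was -3.09 (SE 0.239), an 8.53-fold fall. Without auxin the labelled RNA of PHO84 was high for its total RNA: the ratio of newly synthesized to total normalized counts ranked at the 95th percentile of the 2821 features in both tables. Since the tables were scaled separately, this rank is read and not the ratio itself. These features are only those with the authors' lowest p-values in newly synthesized RNA, so the rank is not among all features.

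PHO81 (YGR233C, chromosome VII 954674 to 958210), the inhibitor of the Pho80-Pho85 kinase, also lay below the median feature in total RNA. It stood at 2679 and 2375 normalized counts in DMSO and 522 and 701 in auxin, with no overlap between the groups. PHO81 fell 4.13-fold (log2 fold change -2.05, SE 0.197, edgeR adjusted p = 1.59e-24). This was 0.20 below the median feature, and the gene was not called with TMM scaling (-0.30, edgeR adjusted p = 0.0607). Its newly synthesized RNA went from 18390 and 21064 to 2124 and 3143 normalized counts, a log2 fold change of -2.91 (SE 0.256). The newly synthesized to total ratio in DMSO ranked at the 90.6th percentile. The listed feature YGR232W lies 27 bases from PHO81 and had a smaller total RNA change of -1.22.

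SPL2 (YHR136C, chromosome VIII 374654 to 375100) encodes a small protein that turns down low-affinity phosphate uptake when phosphate is short. It was the lowest of the 10 in total RNA, with raw counts of 102 and 76 in DMSO and only 13 and 17 in auxin. Normalized counts were 93.3 and 104 in DMSO against 12.4 and 14.3 in auxin, so the groups did not overlap but the auxin values rest on few reads. SPL2 fell 7.31-fold (log2 fold change -2.87, SE 0.335, edgeR adjusted p = 2.32e-17), the largest fall among the 10 and at the 4.38th percentile of all features. It stayed lower with TMM scaling (-1.12, edgeR adjusted p = 6.27e-03). Its newly synthesized RNA was deeper, at 686 and 852 normalized counts in DMSO and 76.1 and 76.7 in auxin, a log2 fold change of -3.33 (SE 0.203). That was also the largest fall of the listed members in this fraction, and the newly synthesized to total ratio in DMSO ranked at the 90.4th percentile.

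**Figure D2:**
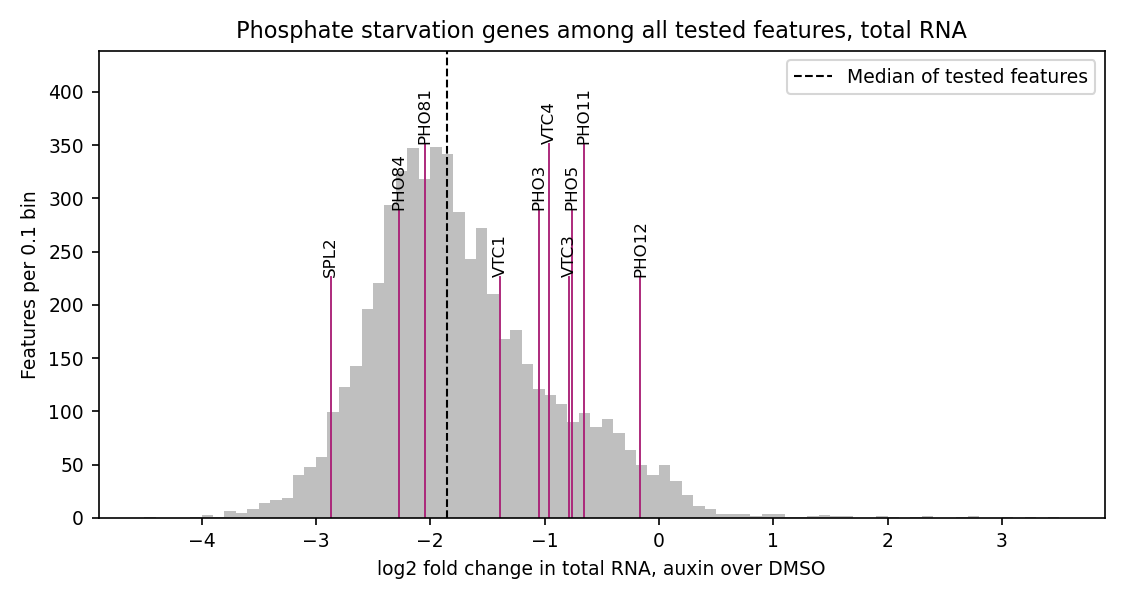
Histogram of log2 fold changes in total RNA, auxin over DMSO, for all 5589 tested features in bins of 0.1, with the 10 genes as vertical lines and the median feature (-1.85) dashed. SPL2 (-2.87), PHO84 (-2.27) and PHO81 (-2.05) lie to the left of the median, and the other 7 to its right; TMM scaling shifts the median to -0.09, which sets those 7 above 0.

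The acid phosphatases are secreted glycoproteins of the cell wall and periplasm. PHO5, PHO11 and PHO12 are the phosphate-repressible forms and PHO3 the constitutive one. All 4 lay above the median feature in total RNA: 3 fell and PHO12 was not called, and with TMM scaling all 4 were called higher. Each is listed with a length of 1404 bases, so that their counts can be compared directly. They have similar sequences and reads could be shared among them. PHO11 and PHO12 are described in the deposited annotation as copies from a segmental duplication, and the sources used here do not give how the authors' counting treated shared reads. Their separate values are therefore uncertain.

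PHO5 (YBR093C, chromosome II 429548 to 430951) is the classic reporter of the pathway. Its total RNA was 3074 and 3222 normalized counts in DMSO and 1691 and 2018 in auxin. The groups did not overlap, and 58.9% of the DMSO mean was left. The log2 fold change was -0.76 (SE 0.194, edgeR adjusted p = 9.65e-05), 1.09 above the median feature, and it was 1.00 with TMM scaling. Newly synthesized PHO5 RNA went from 3668 and 4083 to 430 and 545 normalized counts, a log2 fold change of -2.99 (SE 0.257). Only 12.6% of the DMSO mean was left in that fraction.

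PHO3 (YBR092C, chromosome II 427698 to 429101) lies 446 bases from PHO5 on the listed coordinates. In total RNA it had 3416 and 4166 normalized counts in DMSO and 1577 and 2083 in auxin. The auxin libraries were both lower, with 48.3% of the DMSO mean left. The log2 fold change was -1.05 (SE 0.195, edgeR adjusted p = 1.03e-07) and turned to 0.71 with TMM scaling. Newly synthesized PHO3 RNA went from 7716 and 8479 to 933 and 1313 normalized counts (log2 fold change -2.85, SE 0.264).

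The balance between these neighbours can be read within each library, free of any scaling. The ratio of PHO5 to PHO3 was 0.900 and 0.773 in total RNA of DMSO cells and 1.07 and 0.969 in auxin. In newly synthesized RNA it was 0.475 and 0.482 in DMSO and 0.461 and 0.415 in auxin. PHO3 therefore had more RNA than PHO5 in both DMSO libraries of total RNA, and its lead was larger in labelled RNA. The ratio was higher in both auxin libraries than in both DMSO libraries of total RNA, and lower in both auxin libraries of newly synthesized RNA. With 2 libraries against 2 the smallest exact permutation p is 0.333, so no test of these ratios is given.

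PHO11 (YAR071W, chromosome I 225460 to 226863) had 1163 and 1224 normalized counts in total RNA of DMSO cells and 721 and 795 in auxin. The groups were apart, and the log2 fold change was -0.65 (SE 0.187, edgeR adjusted p = 5.35e-04), against 1.11 with TMM scaling. Its newly synthesized RNA was 801 and 808 normalized counts in DMSO and 110.1 and 110.0 in auxin (log2 fold change -2.87, SE 0.199). The newly synthesized to total ratio in DMSO was the lowest of the listed members, at the 2.84th percentile.

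PHO12 (YHR215W, chromosome VIII 552099 to 553502) changed least of the 10. Its total RNA was 3537 and 3953 normalized counts in DMSO and 3360 and 3339 in auxin. The auxin libraries were only slightly lower, and 89.4% of the DMSO mean was left. This change (log2 -0.16, SE 0.195, edgeR adjusted p = 0.422) was not called. It lay 1.69 above the median feature, at the 95.6th percentile, and was 1.61 with TMM scaling (edgeR adjusted p = 7.00e-06).

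The 2 copies from the duplication had unequal counts. PHO12 had 3.04 and 3.23 times the counts of PHO11 in the DMSO libraries and 4.66 and 4.20 times in the auxin libraries of total RNA. The ratio was higher in both auxin libraries. Counts of both genes summed gave a log2 fold change of -0.27, which was not called (SE 0.196, edgeR adjusted p = 0.185). Counts of all 4 acid phosphatases summed gave -0.61 (SE 0.201, edgeR adjusted p = 2.79e-03).

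The VTC complex of the vacuole membrane makes polyphosphate and moves it into the vacuole. VTC4 encodes the polymerase, VTC1 a small membrane subunit, and VTC3 a regulatory subunit whose paralog is VTC2. All 3 members fell in total RNA with the authors' scaling and lay above the median feature; with TMM scaling VTC3 and VTC4 were called higher and VTC1 was not called.

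VTC3 (YPL019C, chromosome XVI 514511 to 517018) and VTC4 (YJL012C, chromosome X 411234 to 413399) were the most abundant of the 10 in total RNA. VTC3 stood at 20343 and 23659 normalized counts in DMSO and 12048 and 13451 in auxin. VTC4 stood at 16568 and 19441 in DMSO and 8503 and 10002 in auxin. Neither gene's groups overlapped, and 57.9% and 51.4% of the DMSO means were left. The log2 fold changes were -0.79 for VTC3 (SE 0.203, edgeR adjusted p = 1.23e-04) and -0.96 for VTC4 (SE 0.203, edgeR adjusted p = 2.84e-06), against 0.98 and 0.80 with TMM scaling. Both are in the highest of the 10 level classes, where the median was -0.47 and the lower quartile -1.06. So VTC3 and VTC4, although above the median of all features, lay between the lower quartile and the median of their class. That class was not set by DMSO level alone.

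Newly synthesized RNA gave another order. VTC3 went from 45952 and 50999 to 5267 and 6740 normalized counts, a log2 fold change of -3.01 (SE 0.239). VTC4 went from 38006 and 43613 to 6070 and 7781, a log2 fold change of -2.56 (SE 0.237), the smallest fall of the listed members and 0.24 above the median of the listed features. Per length, VTC3 and VTC4 were nearly even in the labelled RNA of DMSO cells, with VTC3 to VTC4 ratios of 1.04 and 1.01. The ratio was 0.749 and 0.748 in auxin. In total RNA it moved the other way, from 1.06 and 1.05 in DMSO to 1.22 and 1.16 in auxin.

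VTC1 (YER072W, chromosome V 302806 to 303195) was the scarcer subunit RNA. In total RNA it had 511 and 397 normalized counts in DMSO and 133 and 213 in auxin. Its replicates were farther apart than those of VTC3 or VTC4, although the groups did not overlap. VTC1 fell 2.62-fold (log2 fold change -1.39, SE 0.202, edgeR adjusted p = 1.04e-11) and with TMM scaling stood at 0.35, not called. Newly synthesized VTC1 RNA went from 1601 and 2006 to 258 and 292 normalized counts (log2 fold change -2.71, SE 0.226). Its newly synthesized to total ratio in DMSO was close to the middle of the features in both tables, at the 51.2nd percentile.

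Levels per kb of listed length set the members in order in total RNA of DMSO cells. VTC3 (8772 ± 935 normalized counts per kb) and VTC4 (8312 ± 938) led with overlapping SDs, and VTC3 was the higher in both libraries. PHO84 (3075 ± 76.4), PHO3 (2700 ± 378), PHO12 (2667 ± 210) and PHO5 (2242 ± 74.6) followed, and of these neighbours PHO3 overlapped both PHO84 and PHO12 within 1 SD of the means. Within each library PHO84 was above PHO3, whereas PHO3 and PHO12 changed places. VTC1 (1164 ± 207), PHO11 (850 ± 30.6), PHO81 (714 ± 60.8) and SPL2 (221 ± 17.6) came last, each apart from its neighbours. After auxin PHO12 (2386 ± 10.8) came next after VTC3 and VTC4, and PHO84 (635 ± 179) was below PHO5 and PHO3.

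In newly synthesized RNA of DMSO cells the order was different. PHO84 led with 29281 ± 3405 normalized counts per kb, ahead of VTC3 (19328 ± 1423) and VTC4 (18841 ± 1830). The SDs of VTC3 and VTC4 overlapped, and VTC3 was the higher in both libraries. PHO3 (5767 ± 384), PHO81 (5577 ± 535) and VTC1 (4625 ± 734) followed, and PHO81 overlapped both of the others within 1 SD. Each library kept the order PHO3, PHO81, VTC1. Then came PHO5 (2760 ± 209), SPL2 (1720 ± 263) and PHO11 (573 ± 3.13). PHO81 thus stood ahead of PHO5 in labelled RNA and behind it in total RNA.

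In newly synthesized RNA all 9 listed members were called lower, as were 100% of the 2822 listed features. That table holds the features with the lowest p-values of the authors, 42.1% of an implied 6707, so these calls were settled by the selection and nothing is read from their count. The 9 members ranged from -3.33 (SPL2) to -2.56 (VTC4), with a median of -2.91 beside -2.80 for all listed features. PHO84, PHO5, VTC3 and SPL2 were lower with TMM scaling and VTC4 was higher (0.23), beside 25% of listed features called lower and 21.2% higher.

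The auxin effect was then compared between fractions, gene by gene, as an interaction over all 8 libraries. The newly synthesized RNA table lists features by the p-value of this same fall, and none of them had a change above -2.21 there, so the direction of the difference was largely set by the selection. The fall was called larger in newly synthesized than in total RNA for 8 of the 9 members, beside 54.6% of the 2821 features tested and 0 called smaller, and nothing is read from these counts or from the direction. The values below describe how the listed members differed among themselves. The difference was -2.23 for PHO5 (SE 0.288, edgeR adjusted p = 1.35e-13), -2.23 for VTC3 (SE 0.273) and -2.22 for PHO11 (SE 0.282). It was -1.80 for PHO3, -1.60 for VTC4 and -1.32 for VTC1. For PHO81 (-0.86, edgeR adjusted p = 6.11e-03) and PHO84 (-0.82, edgeR adjusted p = 7.20e-03) it was close to the median feature's -0.72. SPL2 was not called (-0.46, SE 0.406, edgeR adjusted p = 0.312).

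Which members differ between fractions depends in part on scaling. With TMM scaling in each fraction 5 members had a larger fall in newly synthesized RNA (PHO5, PHO3, PHO11, VTC3 and VTC4), beside 24.3% of features, and 0 members had a smaller fall there, beside 43.9%. TMM took its zero from the 5589 tested features in total RNA but from the 2822 selected ones in newly synthesized RNA. The zeros therefore differ by selection, the median feature stood at 0.31, and nothing is read from these counts. Values under TMM scaling were -1.20 for PHO5, -1.21 for VTC3, -1.18 for PHO11, -0.78 for PHO3 and -0.58 for VTC4. VTC1 (-0.26) was no longer called, and PHO84 (0.23), PHO81 (0.17) and SPL2 (0.59) turned positive and were not called. Relative to the median feature they did not change sides: PHO84 and PHO81 lay below it and SPL2 above it with either scaling. The PHO84 call was also lost without total RNA auxin replicate 2 (-0.50, edgeR adjusted p = 0.219) and without newly synthesized RNA DMSO replicate 2 (-0.69, edgeR adjusted p = 0.0974). The PHO81 call was lost without either of these (-0.63, edgeR adjusted p = 0.118, and -0.76, edgeR adjusted p = 0.0689), without total RNA DMSO replicate 2 (-0.77, edgeR adjusted p = 0.0544) and without newly synthesized RNA auxin replicate 1 (-0.60, edgeR adjusted p = 0.0664).

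**Figure D3:**
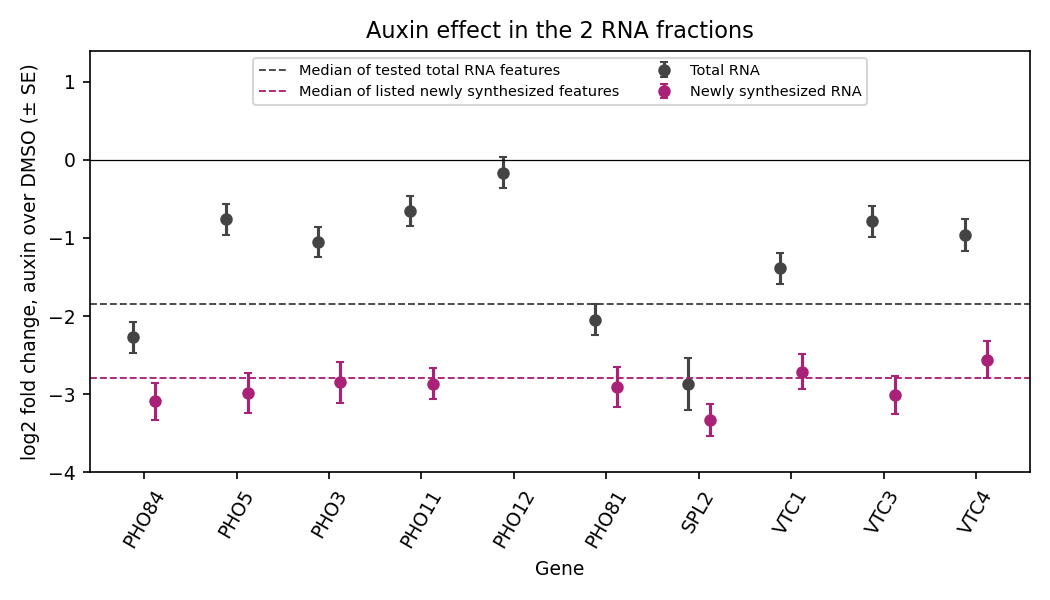
Log2 fold change of auxin over DMSO with its SE for each gene in total RNA (grey) and newly synthesized RNA (magenta), with the median feature of each table dashed (-1.85 and -2.80). Members spread from -2.87 (SPL2) to -0.16 (PHO12) in total RNA and from -3.33 (SPL2) to -2.56 (VTC4) in newly synthesized RNA. Features of the latter were selected by the p-value of this fall and lack PHO12, so the spreads are not compared. With TMM scaling the grey points of PHO5, PHO3, PHO11, PHO12, VTC1, VTC3 and VTC4 lie above 0.

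Among these 9 members, those with much labelled RNA for their total RNA in DMSO had the least total RNA left after auxin. PHO84, PHO81 and SPL2, at or above the 90.4th percentile of that ratio, kept 20.7%, 24.2% and 13.5% of their DMSO mean. VTC1, at the 51.2nd percentile, kept 38.1%. PHO3, VTC3 and VTC4, at the 18.9th, 19.9th and 20.7th percentiles, kept 48.3%, 57.9% and 51.4%. PHO5 and PHO11, at the 7.27th and 2.84th, kept 58.9% and 63.5%. Other phosphate genes, described below, did not all keep this order. PPN2, at the 17.8th percentile, kept 19.1% and PHM6, at the 35.4th, kept 13.0%. PHO88, at the 6.7th, kept 75.3% and KCS1, at the 94.2nd, kept 19.5%. Total RNA in DMSO is the denominator of both measures, so an error in it moves both the same way. The percentiles are among features selected by p-value in newly synthesized RNA. The arrangement is a description of 9 genes with no test.

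**Figure D4:**
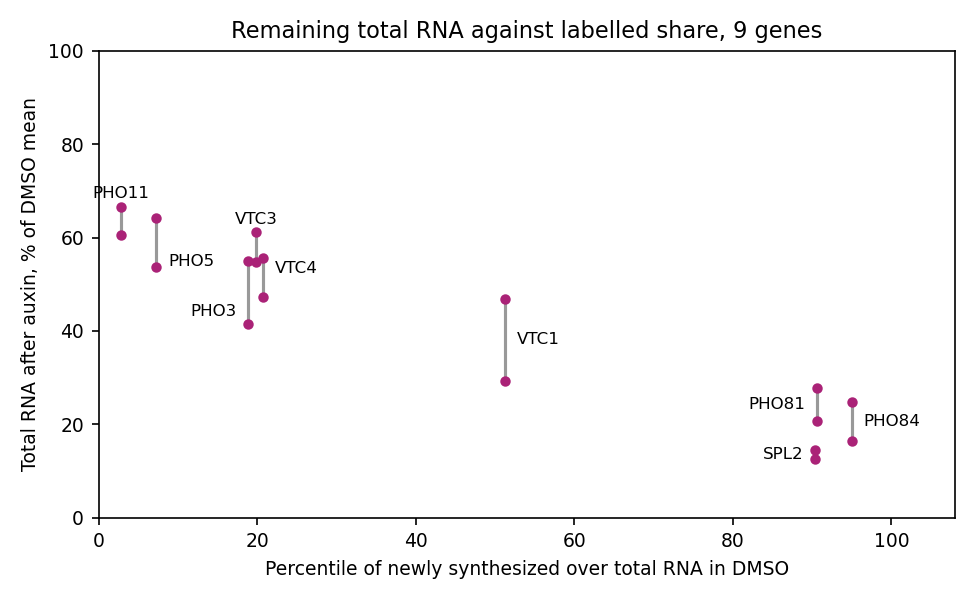
Total RNA after auxin as a percent of the DMSO mean, with 1 point per auxin library, against the percentile of the newly synthesized to total RNA ratio in DMSO among 2821 features, for the 9 genes in both tables. PHO84, PHO81 and SPL2 sit at the lower right with at most 27.7% left, and PHO11 and PHO5 at the upper left with at least 53.7%. Total RNA in DMSO is the denominator on both axes, and the 2821 features were selected by p-value in newly synthesized RNA. Other phosphate genes, which are not shown, did not all keep this order.

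Other genes of phosphate metabolism, 24 in all, were listed by role beside the members. All 24 were called lower in total RNA and 0 higher, near the 92.3% of all features, with a median of -1.64. Without any 1 of the 4 libraries 22 or 23 remained lower, and the calls lost were those of PHO88 and VIP1. With TMM scaling 5 were called lower and 10 higher, beside 32.3% and 29.6% of all features. Of the 24, 17 were in the newly synthesized RNA table, all lower like every listed feature, with a median of -2.87. There TMM scaling gave 6 lower and 4 higher, beside 25% and 21.2% of listed features.

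The 4 signalling genes PHO4, PHO2, PHO80 and PHO85 fell in total RNA with a median of -1.60 (with TMM scaling PHO2 alone was called, and it was higher), and none of them (0 of 4) was in the newly synthesized RNA table. PHO85, the kinase, had 659 and 894 normalized counts in DMSO and 219 and 237 in auxin (-1.76, SE 0.197). PHO2, the homeodomain partner of Pho4, had 327 and 387 in DMSO and 154 and 157 in auxin (-1.20, SE 0.207).

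Among the 7 transport genes the median was -1.72. PHO87, a low-affinity transporter, fell furthest, from 1258 and 1321 to 204 and 227 normalized counts (-2.58, SE 0.200). It was also lower with TMM scaling (-0.82). PHO88, a membrane protein of the endoplasmic reticulum, fell least, from 10122 and 12609 to 8028 and 9086 (-0.41, SE 0.201, edgeR adjusted p = 0.0445), and rose with TMM scaling (1.36). The PHO88 call was lost without any 1 of the 4 libraries (edgeR adjusted p from 0.0570 to 0.442). Per length, PHO84 had 6.65 and 6.56 times the total RNA of PHO87 in DMSO and 6.89 and 9.32 times in auxin. Against PHO89, a sodium-coupled phosphate transporter, the ratio was 2.40 and 2.33 in DMSO and 1.35 and 1.85 in auxin in total RNA. In labelled RNA it was 5.83 and 6.11 in DMSO and 6.05 and 5.83 in auxin, where the groups overlapped. Against PHO90, a low-affinity transporter, the labelled RNA ratio was 7.47 and 7.59 in DMSO and 5.28 and 4.96 in auxin, lower in both auxin libraries. In total RNA that ratio was 4.86 and 3.85 in DMSO and 2.66 and 3.61 in auxin.

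Of the 5 other targets of Pho4, PHM6, a protein of unknown function regulated by phosphate, had the largest fall. Its total RNA went from 133.5 and 185 to 16.2 and 25.2 normalized counts (-2.91, SE 0.292), and its newly synthesized RNA from 424 and 579.5 to 30.2 and 43.5 (-3.77, SE 0.202). PHM6 and SPL2 both had low normalized counts in total RNA. Per length, PHM6 stood at the 42.6th percentile of tested features in DMSO and SPL2 at the 20th. GDE1, which breaks down glycerophosphocholine, had the smallest fall of the group in total RNA (-1.31, SE 0.191; 0.46 with TMM scaling).

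Polyphosphate and inositol pyrophosphate enzymes (8 genes) had a median of -1.64. The largest fall was of PPN2, an endopolyphosphatase of the vacuole (-2.39, SE 0.198), and the smallest of VIP1, an inositol pyrophosphate synthase (-0.49, SE 0.199, edgeR adjusted p = 0.0145; 1.27 with TMM scaling). The VIP1 call was lost without either DMSO library or without auxin replicate 1 (edgeR adjusted p from 0.0545 to 0.229). VTC2, the paralog of VTC3, had -1.12 (SE 0.203; 0.64 with TMM scaling) and the accessory subunit gene VTC5 -1.96 (SE 0.196; -0.19 with TMM scaling, not called); both were named after their values were seen, as the other subunits of the VTC complex. Per length VTC3 had 1.48 and 1.60 times the total RNA of VTC2 in DMSO and 2.03 and 1.88 times in auxin, while the labelled RNA ratio was 1.32 and 1.32 in DMSO and 1.38 and 1.34 in auxin.

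**Figure D5:**
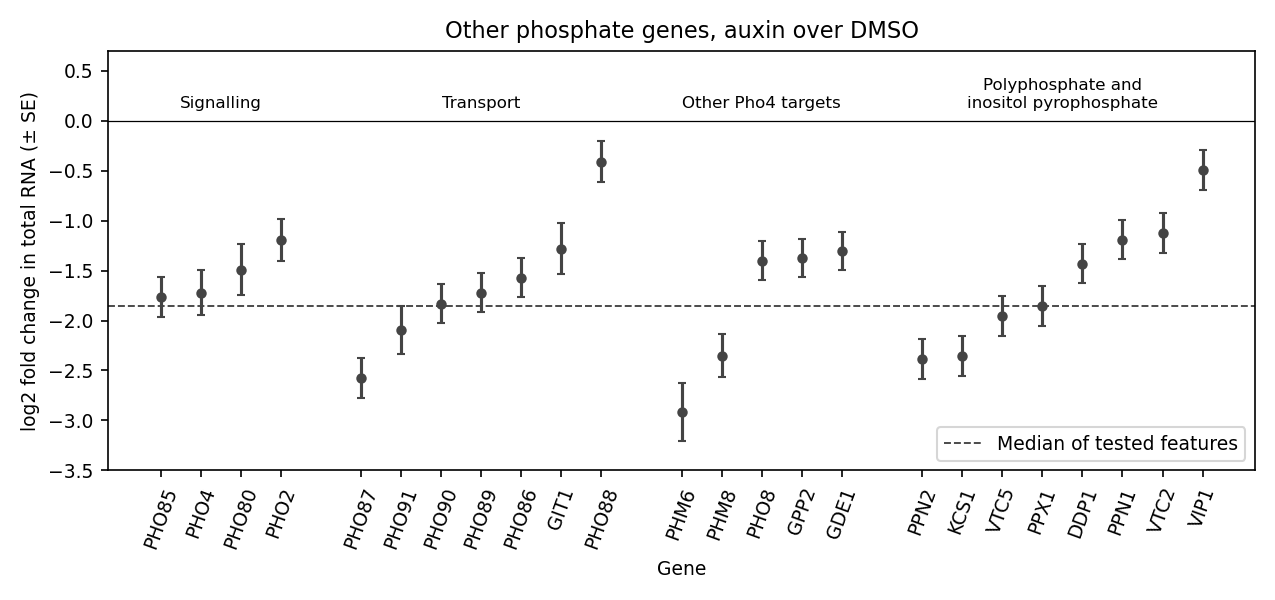
Log2 fold change of auxin over DMSO in total RNA with its SE for 24 other phosphate genes, ordered within 4 role groups, with the median of all tested features (-1.85) dashed. PHM6 (-2.91) and PHO87 (-2.58) lie lowest and PHO88 (-0.41) and VIP1 (-0.49) highest. With TMM scaling 10 of the genes are called higher and 5 lower, beside 29.6% and 32.3% of all features.

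The features whose pattern was most like that of SPL2, the member with the largest fall, were PEX2 and UBX6. Likeness was the root mean square difference over 8 libraries of log2 normalized counts, centred on DMSO in each fraction, and was 0.0422 and 0.0485 among 2820 features. For PHO12, the member with the smallest fall, the closest over the 4 total RNA libraries were the small nucleolar RNA snR86 (0.0380), CIS1 (0.0460) and the dubious reading frame YJL215C (0.0511) among 5588 features. Their total RNA log2 fold changes were -0.13 for snR86, -0.20 for CIS1 and -0.22 for YJL215C.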

How the data were processed

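RNA-seq counts of 8 libraries in 4 groups of 2 were used, grouped by the labels, which number biological replicates 1 and 2. Raw counts per feature were deposited by the authors, as whole numbers, in 1 table per RNA fraction. The authors' normalized signal is each library's raw count over that library's size factor (0.613 to 1.59), per the file headers and the values, and a second signal divides it by listed length in kb. The sources used here do not give the basis of these factors. In newly synthesized RNA they were 0.613 and 0.657 in DMSO and 1.59 and 1.56 in auxin. Counts over the listed features ran the other way there, with 13125438 and 15744423 in DMSO and 4817883 and 5882137 in auxin. In total RNA the factors were 1.09 and 0.728 in DMSO and 1.05 and 1.19 in auxin. Their source was not tested. The authors' deposited log2 fold changes differed from those given here by at most 0.15 for a member, in SPL2 (-2.72 in the authors' deposited table), and the authors' deposited p-values served to find which features the partial table holds. Within 1%, 2818 of the 2821 that stand there follow ranks among 6707 features. The submitters' processing notes name build sacCer3 and bcl2fastq 2.17.1.14; libraries were stranded, ribosomal RNA was depleted and cells were mixed with 3 parts of Schizosaccharomyces pombe, per the labels' protocols. Aligner, counter and strand setting: not given in the sources used here.

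Testing was limited to features averaging 10 or more counts and used edgeR 4.0.16 (quasi-likelihood F test, treatment only, authors' size factors) in R 4.3.3, per fraction, with Benjamini-Hochberg adjustment over all tested features. The difference between fractions was an interaction over features tested in both. Scripts were tested on simulated data. The members, the list of other phosphate genes and the tests were chosen with earlier results of these data known. All members are named, and of each group of other genes those with the largest and smallest fall in total RNA. Alternatives were TMM and DESeq2 1.42.0 size factors, DESeq2's test, other count filters, a replicate block, each library left out, and summed acid phosphatase counts. The last could not be computed in newly synthesized RNA, where PHO12 is not listed.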

Additional observations from a re-analysis of the deposited data

Results flagged for a closer look

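The auxin effect differed between newly synthesized and total RNA, by the interaction test, for 8 of the 9 members in both tables. All were larger falls in newly synthesized RNA, as called for 54.6% of the 2821 features tested. The log2 differences, newly synthesized minus total, were -2.23 for PHO5, -2.23 for VTC3, -2.22 for PHO11, -1.80 for PHO3, -1.60 for VTC4, -1.32 for VTC1, -0.86 for PHO81 and -0.82 for PHO84, beside -0.72 for the median feature. With TMM scaling VTC1, PHO81 and PHO84 were not called, and the last pair turned positive (0.17 and 0.23), beside 0.31 for the median feature. The 8 members are singled out because the same treatment gave a different change in the 2 fractions. The newly synthesized RNA table lists features by the p-value of the fall there, which largely set the direction of these differences. Nothing is read from that direction or from the count of members called. Leaving out 1 library ended the PHO84 call (total RNA auxin replicate 2, edgeR adjusted p = 0.219, or newly synthesized RNA DMSO replicate 2, edgeR adjusted p = 0.0974). The PHO81 call ended without either of these, without total RNA DMSO replicate 2 or without newly synthesized RNA auxin replicate 1 (edgeR adjusted p from 0.0544 to 0.118).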

How the results depend on the processing

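The authors' size factors set most directions. With TMM scaling or DESeq2 size factors in total RNA, 1805 or 1544 features were lower and 1652 or 1811 higher (against 5157 and 43), 2 or 2 members lower and 6 or 6 higher, and 5 or 5 other phosphate genes lower and 10 or 11 higher. Members that turned positive had log2 fold changes, TMM then DESeq2 factors, of 1.00 and 1.07 for PHO5, 0.71 and 0.78 for PHO3, 1.11 and 1.18 for PHO11, 1.61 and 1.68 for PHO12, 0.35 and 0.42 for VTC1, 0.98 and 1.05 for VTC3, and 0.80 and 0.88 for VTC4. In newly synthesized RNA 705 or 687 features were lower and 597 or 621 higher, 4 or 4 members lower and 1 or 1 higher, 6 or 6 other phosphate genes lower and 4 or 4 higher, and VTC1 (0.081 and 0.089) and VTC4 (0.23 and 0.24) turned positive. In the interaction TMM scaling gave 685 features with a larger and 1239 with a smaller fall in newly synthesized RNA, 5 members with a larger fall, and reversed PHO84 (0.23), PHO81 (0.17) and SPL2 (0.59). The median feature there stood at 0.31, since TMM took its zero from selected features in newly synthesized RNA only. A mean of at least 50 counts left 25 features higher in total RNA, where fewer were tested. The cause of the other changes was not tested.

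With DESeq2's test, other filters or any library left out, 9 members were lower in each fraction. Among the other phosphate genes 22 to 24 were lower in total RNA under these settings and with crossed numbers. Leaving out 1 library gave 4896 to 5197 features lower and 30 to 47 higher in total RNA, and 6 to 8 members and 1126 to 2003 features with a larger fall in newly synthesized RNA.

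Replicate numbers were not treated as pairs, since the labels tie them to no shared culture or day. The correlation of same-numbered deviations was -0.121 in total RNA and 0.0515 in newly synthesized RNA, and between total and newly synthesized RNA of 1 number it was 0.163 in DMSO and 0.0988 in auxin. A replicate block gave 5226 features lower and 51 higher in total RNA, 2822 and 0 in newly synthesized RNA, and 9 members lower in each. In the interaction it gave 2021 with a larger fall and 1 with a smaller one, and 8 members. With numbers crossed, chosen after seeing the data, 4982 were lower and 37 higher in total RNA. Taking total and newly synthesized RNA of 1 number and treatment as 1 culture, also added later, gave 2148 with a larger fall and 8 members. The labels give both fractions the same numbers and treatments but name no shared culture. SEs of the difference were smaller in that fit: 0.12 against 0.288 for PHO5, 0.138 against 0.275 for PHO84 and 0.141 against 0.284 for PHO81. SPL2 in total RNA after auxin (13 and 17 counts) is limited by depth.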
